A study of Mus musculus with 11 samples.

Results

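The collagen genes were taken as all rows whose gene symbol is Col, a number, the letter a and a number. The rule found 44 genes in the age table and 43 in each of the Sca1 and knockout tables, where Col19a1 was not listed. They are 44 of the 16576 genes listed over the 3 tables. Pseudogenes, antisense genes and collagen-like proteins with other symbols were not included.

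RNA was sequenced from bone marrow stromal cells of mice that had been sorted by flow cytometry. The wild-type groups were 3 adult libraries sorted as PDGFRa+CD51+, 3 libraries sorted as PDGFRa+Sca1+, and 2 libraries (numbers 2 and 3) sorted as PDGFRa+Sca1-. The last 2 groups are labelled postnatal and are called perinatal here. The fourth group held 3 PDGFRa+Sca1+ libraries with Igf1r, the gene of the insulin-like growth factor 1 receptor, knocked out. By their titles the knockouts carried Cre and the perinatal PDGFRa+Sca1+ wild-type libraries did not, so any effect of Cre cannot be told apart from the deletion. No label gives the Cre driver or the age of the knockouts, and nothing says whether libraries of a group came from separate animals. The p-values then measure the spread between these libraries, which may be technical. PDGFRa, CD51 and Sca1 are surface proteins encoded by Pdgfra, Itgav and Ly6a.

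Collagens are extracellular proteins whose chains wind around each other into a rope-like helix, with some types made of identical chains and others of different ones. Fibrillar collagens form the cables of bone, tendon, skin and cartilage, fibril-associated collagens coat those cables, type IV forms the sheet of basement membranes, and type VI forms beaded filaments around cells. In the skeleton, osteoblasts and fibroblasts make mainly type I collagen, while chondrocytes make types II, IX, X and XI. The chains are hydroxylated and folded in the endoplasmic reticulum, exported, trimmed by proteases and crosslinked by lysyl oxidases.

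The libraries held 13412316 to 23782217 counts each, and several stood apart from their labels. Igf1r counts were 182, 80 and 77 in the knockouts and 599, 548 and 444 in controls 1, 2 and 3, so the groups did not overlap. A count per gene does not show which exons were removed. Ly6a ran against the Sca1 labels: it was 666 and 659 CPM (counts scaled to a common library total) in the libraries labelled Sca1-negative, but 13.8 and 10.03 CPM in the Sca1-positive libraries 2 and 3. Control 1 held 425 CPM and the knockouts 682 to 930 CPM. The age table has no row named Ly6a. Sca1-positive libraries 2 and 3 recur in each of the 3 tables, where 43 of 43 collagen genes have equal counts, so the 3 comparisons share them. Library 1 differs between the age and the knockout table, and 0 of 43 collagen genes have the same count in both. Groups are called by their labels below. The adult libraries were sorted for PDGFRa but held 13.4 to 15.2 CPM of Pdgfra, against 235 to 279 CPM in the perinatal ones. Their Itgav level was 271 to 305 CPM, against 47.6 to 51.9 CPM.

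Levels of different genes are compared here only as CPM per kilobase of annotated exon. On that scale, computed from counts, Col1a1 had the highest mean of the collagens in every group, at 5909 ± 1387 in perinatal and 309.7 ± 80.9 in adult libraries of the age table (SD, n = 3 each). It was 3965 ± 456 in the libraries labelled Sca1-negative (SD, n = 2) and 4292 ± 286 in the knockouts (SD, n = 3). Col1a2 and Col3a1 followed in perinatal libraries of the age table, at 2337 ± 745 and 1864 ± 227, neighbours whose spreads overlapped, and then Col6a1 at 1187 ± 88.5. In the knockouts Col3a1 stood second at 2559 ± 320 and Col1a2 next at 1340 ± 262. In adult libraries the spreads of Col1a1 and Col1a2 (210.9 ± 55.7) overlapped, but both were measured in the same libraries. Their count ratio varied little there, at 0.804, 0.764 and 0.759, so the overlap does not decide their order. By the authors' TPM Col1a1 was the lower of these chains, at 0.664, 0.629 and 0.612 of Col1a2. Next came Col5a2 (109.4 ± 15.6), Col3a1 (86.5 ± 16.3) and Col5a1 (76.9 ± 20.1), and Col6a1 was at 13.2 ± 2.74. By counts the order below type I thus differed between adult and perinatal cells. Neighbours such as Col3a1 and Col5a1 in adults had overlapping spreads on this scale, again within the same libraries. The counts behind 1 TPM, relative to each library's median, were 2.34 for Col3a1 and 3.97 to 4.03 for Col5a1 in adults. By TPM the gap between them is therefore not the same.

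**Figure D1:**
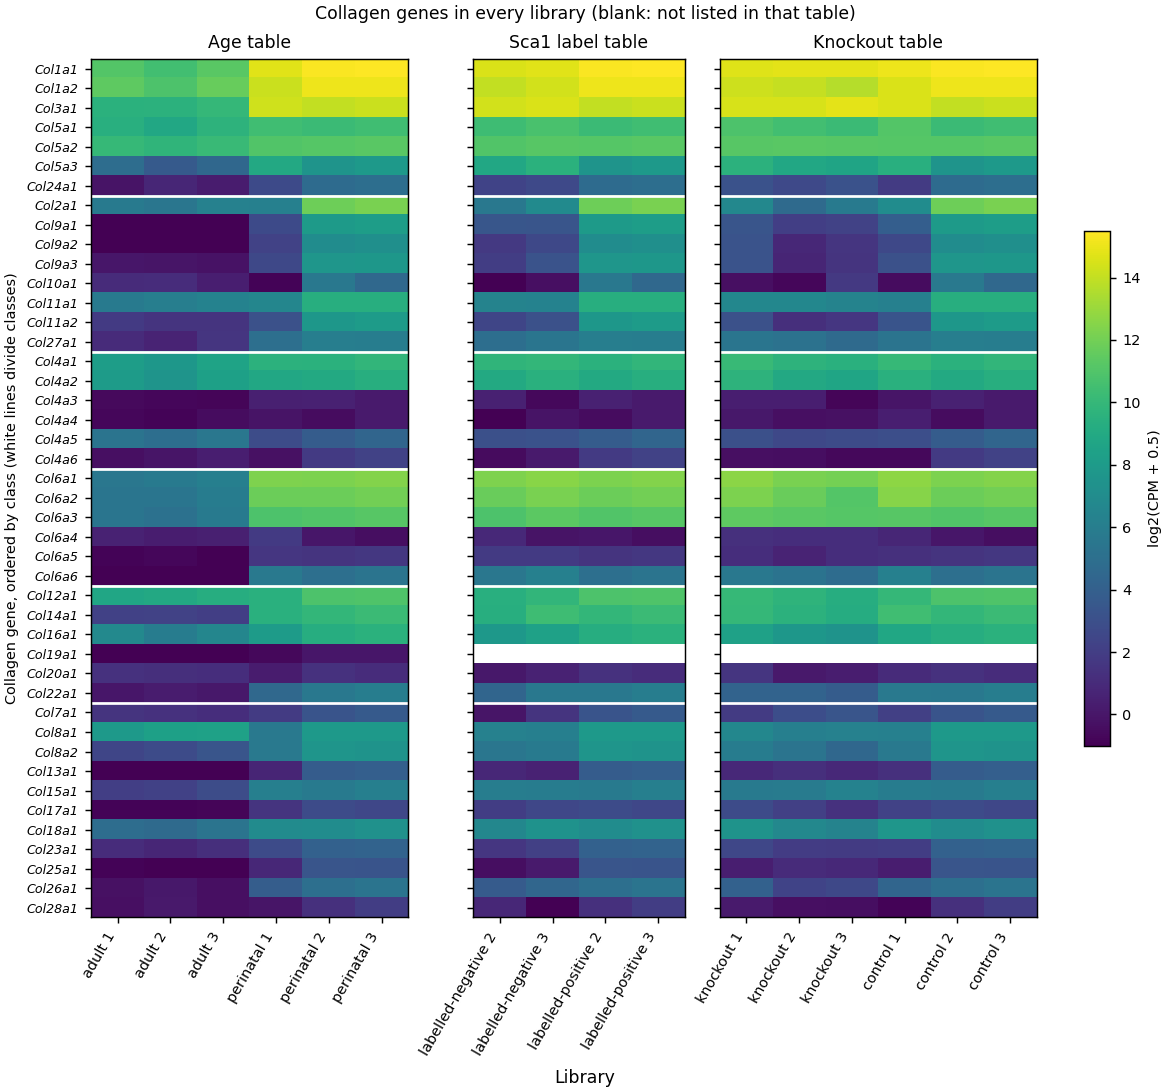
Level of each collagen gene (rows, grouped by class between white lines) in each library (columns), as log2(CPM + 0.5) on the colour scale, with 1 panel for each table. The adult columns are dark for most genes, and the cartilage rows are brightest in the Sca1-positive libraries 2 and 3.

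The start regions of 35 of the 44 genes were found among RefSeq promoters (GRCm38.p6, 300 bases, from 250 before to 50 after the start), as 38 windows. The Col4a1 and Col4a2 windows are shown because these partner chains start from opposite strands of the same stretch of chromosome 8, 21 bases apart. Their windows share 78 bases. In the sequences below, printed 5′ to 3′ on each gene's own strand, capitals mark matches on either strand to 5 short motifs. They are the TATA box TATAAA, the CCAAT box and the GC box GGGCGG. The other two are core motifs bound by Sox factors, ACAAT and the related motif ACAAAG. None of these motifs contains another. Col4a1 is at chr8:11312777-11313076 (minus strand) and Col4a2 at chr8:11312555-11312854 (plus strand).
Col4a1: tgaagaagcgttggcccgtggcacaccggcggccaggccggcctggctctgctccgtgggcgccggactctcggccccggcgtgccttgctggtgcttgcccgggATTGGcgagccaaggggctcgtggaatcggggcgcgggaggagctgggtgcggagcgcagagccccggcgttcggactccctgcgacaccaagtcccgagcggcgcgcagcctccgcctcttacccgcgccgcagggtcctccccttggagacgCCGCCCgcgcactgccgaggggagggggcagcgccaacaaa
Col4a2: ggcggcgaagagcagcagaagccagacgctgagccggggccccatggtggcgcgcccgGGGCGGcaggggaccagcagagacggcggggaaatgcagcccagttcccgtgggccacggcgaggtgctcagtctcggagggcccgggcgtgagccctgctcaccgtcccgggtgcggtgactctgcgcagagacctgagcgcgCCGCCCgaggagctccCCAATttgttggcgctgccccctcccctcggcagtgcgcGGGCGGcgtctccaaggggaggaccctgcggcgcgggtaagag

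Col9a2, Col11a2 and Col10a1 are shown as examples of cartilage collagens that fell in both the age and the Sca1 comparison below. Col9a1 and Col11a1 did so too, and their windows are not printed. The windows are chr4:121039316-121039615 for Col9a2, chr17:34038888-34039187 for Col11a2 and chr10:34389731-34390030 for Col10a1, all on the plus strand. Col10a1 has a TATAAA that begins 32 bases before its start and an ACAAAG 185 bases before it, and Col11a2 has a TATAAA 143 bases before its start.
Col9a2: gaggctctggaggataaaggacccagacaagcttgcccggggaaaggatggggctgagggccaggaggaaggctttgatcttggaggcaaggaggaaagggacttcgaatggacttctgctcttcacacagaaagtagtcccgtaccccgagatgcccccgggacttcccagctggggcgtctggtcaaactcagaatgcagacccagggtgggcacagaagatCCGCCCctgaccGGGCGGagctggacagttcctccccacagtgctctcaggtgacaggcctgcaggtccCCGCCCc
Col11a2: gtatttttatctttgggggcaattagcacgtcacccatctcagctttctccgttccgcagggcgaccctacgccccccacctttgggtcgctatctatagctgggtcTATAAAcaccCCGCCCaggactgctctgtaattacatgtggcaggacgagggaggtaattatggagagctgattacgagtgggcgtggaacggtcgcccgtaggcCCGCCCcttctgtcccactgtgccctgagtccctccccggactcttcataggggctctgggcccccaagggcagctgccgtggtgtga
Col10a1: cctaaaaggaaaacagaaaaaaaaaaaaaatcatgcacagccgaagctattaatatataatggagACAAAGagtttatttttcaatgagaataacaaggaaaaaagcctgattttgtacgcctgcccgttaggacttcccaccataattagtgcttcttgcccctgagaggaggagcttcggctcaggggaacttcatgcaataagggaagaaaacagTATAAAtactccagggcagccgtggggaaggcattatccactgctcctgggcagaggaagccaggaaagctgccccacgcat

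GGGCGG or its complement was in 23 of the 38 collagen windows (60.5%) and in 35.7% of all 32851 promoter windows in the table. TATAAA was in 5 of 38 windows (13.2%) against 13.6% of all, CCAAT in 13 (34.2%) against 37.4%, ACAAT in 2 (5.26%) against 31.0% and ACAAAG in 5 (13.2%) against 18.7%. The collagen windows were richer in G and C, with a median of 59.8% against 52.7%. Of the 7 windows of cartilage collagens, 0 held ACAAT, 1 held ACAAAG and 2 held TATAAA. A match describes letters in these windows only.

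Adult and perinatal cells were compared first, a comparison in which age and sort gate differ together. Nearly the whole family was lower in adult cells. Of 40 collagen genes tested with edgeR's quasi-likelihood test, 36 fell and 1 rose in adult libraries, against 39.7% of all genes tested that fell and 37.4% that rose. Their median log2 fold change was -4.55, against -0.06 for all genes tested, and stayed at -4.55 with the 4 tested genes at 0 in all adult libraries set at their lower bounds. After TMM scaling, groups did not overlap for 35 of the 40, against 81.2% of all genes. The 4 genes not tested for low counts were Col4a3, Col4a4, Col19a1 and Col28a1, none above 3.46 CPM in a library. Collagen genes together took 0.905%, 0.708% and 1.10% of all counts in adult libraries and 8.53%, 11.8% and 12.7% in perinatal libraries 1, 2 and 3. The means were 0.905% ± 0.197 and 11.02% ± 2.19 (SD, n = 3 each; exact two-sided permutation p = 0.10, the smallest that 3 against 3 libraries allow). In such sorted bulk samples, fewer cells that make a transcript and less of it per cell cannot be told apart.

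Markers of other cell types moved with this result. The 7 macrophage markers (Adgre1, Cd68, Csf1r, Ctss, Lyz2, Mpeg1 and Ptprc) rose in adult libraries in 7 of 7 cases, with summed levels of 19541 to 22451 CPM against 17.2 to 20.0 CPM in perinatal libraries. The 8 chondrocyte markers summed to 1.91 to 3.73 CPM in adult libraries, where Cnmd, Hapln1 and Snorc were at 0 in each, and to 673, 2291 and 2222 CPM in perinatal libraries 1, 2 and 3; 7 of 7 tested fell. Of 6 osteoblast markers tested 5 fell, with a median log2 fold change of -6.88. The list summed to 1387 to 1785 CPM in adult libraries and to 353, 6429 and 5898 CPM in the perinatal ones. Such a sum is weighted to its most abundant genes and need not follow most members. Tendon markers summed to 26.8 to 57.5 CPM in adult libraries and to 2471, 6617 and 6417 CPM in perinatal ones (4 of 4 fell), and fibroblast progenitor markers to 1.19 to 3.12 CPM against 1204, 436 and 554 CPM (4 of 4 tested fell). Skeletal muscle markers fell too (5 of 5), with sums of 11.2 to 16.2 CPM against 325 to 391 CPM. The part of these cells in the collagen differences was not tested.

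The fibrillar collagens of types I, III, V and XXIV all fell in adult cells, 7 of 7 tested (median log2 fold change -4.14). Col1a1 (chromosome 11, 94936224 to 94953042, plus strand), which encodes the main chain of type I collagen, was at 2157, 1451 and 2491 CPM in adult libraries and 28306, 43292 and 44748 CPM in perinatal ones. All adult libraries lay far below every perinatal one. The TMM-scaled levels were 1859 ± 523 and 42617 ± 10171 CPM (SD, n = 3 each), and the log2 fold change was -4.52 (SE 0.33, adjusted p = 1.26e-05 in edgeR's quasi-likelihood test). Its partner chain gene Col1a2 was at 2682, 1900 and 3280 CPM against 18357, 34095 and 34659 CPM (log2 fold change -3.73, SE 0.36). Col3a1, of the more extensible type III fibrils, was at 752, 761 and 1033 CPM in adult libraries and 20501, 16037 and 18349 CPM in perinatal ones (-4.70, SE 0.24). For both genes the groups stood well apart, but perinatal library 1 was the lowest of its group for type I and the highest for type III.

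Type V collagen, which starts and limits the thickness of type I fibrils, was lower by less. Col5a1 was at 692, 467 and 800 CPM in adult libraries and 1395, 1217 and 1418 CPM in perinatal ones (log2 fold change -1.31, SE 0.23, adjusted p = 0.00121 in edgeR's quasi-likelihood test). Col5a2 was at 1083, 885 and 1179 CPM against 2039, 2237 and 2498 CPM (-1.37, SE 0.18). Neither overlapped between groups, yet the fall was smaller than that of the type I and III chains. The minor type V chain gene Col5a3 differed from these partners, at 29.1, 12.2 and 22.2 CPM against 505, 182 and 248 CPM (-4.14, SE 0.50). Col24a1, a fibrillar collagen of developing bone, was at 0.41, 1.18 and 0.67 CPM against 6.07, 26.4 and 30.4 CPM (-5.06, SE 0.71).

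All 8 cartilage collagens were lower in adult cells (median log2 fold change -6.06), and for most of them the perinatal libraries themselves fell into a low library 1 and high libraries 2 and 3. Col2a1 (chromosome 15, 97975602 to 98004695, minus strand), of the main cartilage fibril, was at 52.4, 44.2 and 76.9 CPM in adult libraries and 72.6, 3640 and 4646 CPM in perinatal libraries 1, 2 and 3. Before scaling, perinatal library 1 thus lay within the adult range, and the other two were far above it. The log2 fold change was -5.86 (SE 1.31, adjusted p = 0.00423 in edgeR's quasi-likelihood test), and -0.58 with perinatal library 1 alone as reference (adjusted p = 0.152 in the same test). With a single reference library, here and below, the spread comes from the adult libraries alone and that library is assumed to vary like them. Col11a1, of the fibril core, was at 52.5, 66.4 and 80.8 CPM in adult libraries and 95.4, 659 and 642 CPM in perinatal ones (-3.08, SE 0.66). Col11a2, its partner, was at 3.07, 2.24 and 2.31 CPM against 7.89, 211 and 265 CPM (-6.25, SE 1.20). Both lay above all adult values in every perinatal library, and library 1 was far below libraries 2 and 3.

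The 3 chains of type IX collagen, which sits on the surface of cartilage fibrils, were absent or nearly so from adult libraries. Col9a1 and Col9a2 were at 0 in all 3, and Col9a3 was at 0.52, 0.47 and 0.37 CPM. In perinatal libraries 1, 2 and 3 they were at 6.07, 258 and 290 CPM (Col9a1), 4.25, 127 and 149 CPM (Col9a2) and 5.60, 199 and 208 CPM (Col9a3). With adults set at a floor of 3 counts per library, Col9a1 was at least 1165-fold and Col9a2 at least 589-fold below the perinatal mean. Libraries 2 and 3 set most of that mean, and against perinatal library 1 alone both bounds would be far lower. Col9a3 had a log2 fold change of -8.47 (SE 1.46, adjusted p = 0.00108 in edgeR's quasi-likelihood test). Col27a1, a fibrillar collagen of the growth plate, was at 1.56, 1.06 and 2.46 CPM against 31.9, 65.2 and 63.4 CPM (-5.27, SE 0.41), and its perinatal library 1 stood well above the adult libraries.

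Col10a1, the collagen of hypertrophic chondrocytes, had perinatal libraries on both sides of the adult ones. It was at 1.56, 1.59 and 0.82 CPM in adult libraries and 0.07, 49.3 and 23.2 CPM in perinatal libraries 1, 2 and 3, so perinatal library 1 was below all adults and the others above. The log2 fold change was -4.43 (adjusted p = 0.0194 in edgeR's quasi-likelihood test), and 3.93 against perinatal library 1 alone, which rests on that single library. The call was lost without adult library 1, 2 or 3 or perinatal library 2 (edgeR adjusted p = 0.0678, 0.0754, 0.0697 and 0.0658).

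**Figure D2:**
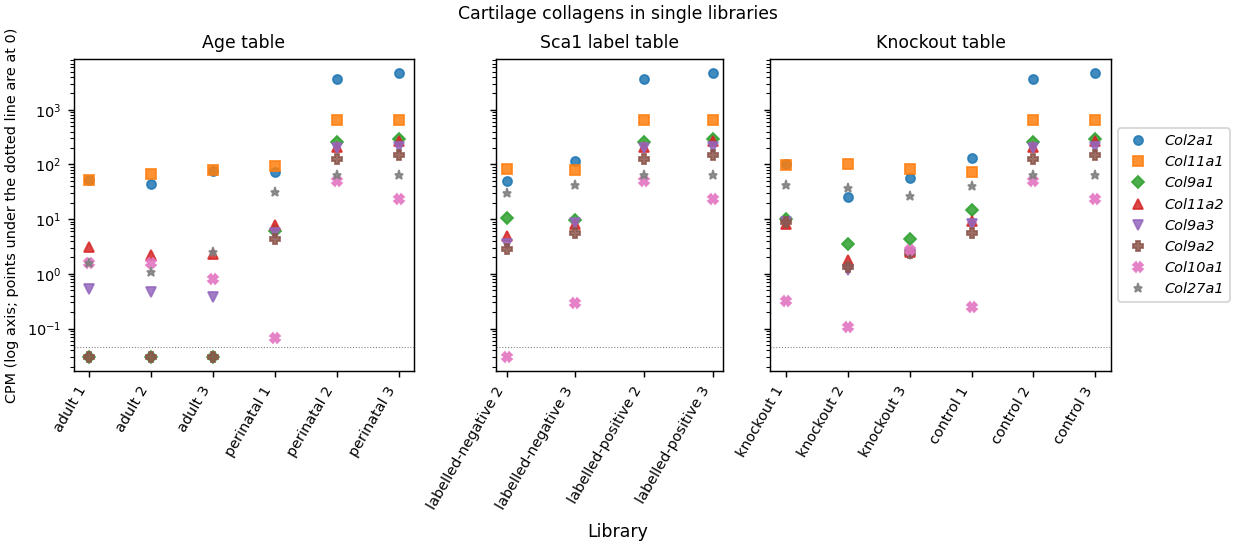
CPM of the 8 cartilage collagens (symbols) in each library (horizontal axis) on a log axis, with 1 panel for each table; points under the dotted line are at 0. Sca1-positive libraries 2 and 3, shown in all panels, hold 3640 CPM or more of Col2a1, while every other library holds at most 131 CPM.

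Type IV collagens of basement membranes went in both directions, with 3 of 4 tested lower and 1 higher in adult cells. Col4a1, a chain of the widespread basement membrane network, was at 286, 210 and 377 CPM in adult libraries and 785, 755 and 931 CPM in perinatal ones (log2 fold change -1.77, SE 0.24, adjusted p = 3.30e-04 in edgeR's quasi-likelihood test). Col4a2, its partner, was at 260, 185 and 336 CPM against 465, 529 and 636 CPM (-1.33, SE 0.25). The gene bodies of the pair overlap at their starts, so without strand information reads there cannot be assigned to one of them. Col4a5, on the X chromosome, a chain of specialised basement membranes, was the only collagen gene that rose. It was at 40.6, 30.0 and 45.3 CPM in adult libraries and 6.54, 13.2 and 20.7 CPM in perinatal ones, with no overlap (1.25, SE 0.39, adjusted p = 0.0197 in edgeR's quasi-likelihood test). Its adjusted p was 0.0553 without adult library 3 and 0.0573 without perinatal library 2 in the same test. Col4a6, at 4.29 CPM or less, fell (-2.56, SE 0.84, edgeR adjusted p = 0.0246), a call lost without adult library 1 or 2 or perinatal library 2 or 3 (0.0836, 0.0930, 0.0615 and 0.0822). As a share of all collagen counts, type IV took 6.01% to 6.88% in adult libraries and 1.10% to 1.47% in perinatal ones.

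Type VI collagen fell in 5 of 6 genes. Col6a1 (chromosome 10, 76708792 to 76726168, minus strand) was at 46.7, 55.9 and 70.5 CPM in adult libraries and 5062, 4897 and 5636 CPM in perinatal ones. Col6a2 was at 41.4, 41.5 and 60.4 CPM against 3629, 3496 and 4112 CPM, and Col6a3 at 42.9, 35.8 and 55.6 CPM against 1904, 2082 and 2359 CPM. Unlike in the cartilage class, perinatal library 1 was close to libraries 2 and 3 for these chains, which assemble into a common filament. The log2 fold changes were -6.76 (SE 0.25), -6.56 (SE 0.26) and -5.83 (SE 0.25). Col6a6 was at 0 in all adult libraries and at 50.5, 31.9 and 40.5 CPM in perinatal ones, which puts adults at least 258-fold below the perinatal mean. Col6a5 fell too, and Col6a4 was not called (log2 fold change -0.78, adjusted p = 0.395 in edgeR's quasi-likelihood test). Type VI took 1.46% to 1.89% of collagen counts in adult libraries and 8.88% to 12.5% in perinatal ones.

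Fibril-associated collagens were lower in 4 of 5 cases. Col14a1, which coats type I fibrils in skin and tendon, was at 4.05, 4.18 and 3.73 CPM in adult libraries and 726, 979 and 1229 CPM in perinatal ones (log2 fold change -8.21, SE 0.28, adjusted p = 7.17e-07 in edgeR's quasi-likelihood test). Col12a1, its relative, was at 425, 498 and 609 CPM against 710, 1937 and 2022 CPM (-1.88, SE 0.39). Every adult library was below every perinatal one for both, and by counts by far more for Col14a1 than for Col12a1. Col16a1 was at 109, 59.7 and 94.99 CPM against 265, 634 and 739 CPM (-2.90, SE 0.43). For Col12a1 and Col16a1 the counts behind 1 TPM differed between adult and perinatal libraries, as given below. The sizes of their fold changes therefore hold for counts only. Col22a1, found at tissue junctions such as that of muscle and tendon, was at 0.52, 0.71 and 0.52 CPM against 23.4, 48.1 and 62.4 CPM (-6.50, SE 0.47). Col20a1 did not pass (0.12, adjusted p = 0.806 in edgeR's quasi-likelihood test). As a share of collagen counts the class took 5.98% to 7.96% in adult and 2.02% to 3.20% in perinatal libraries, but 5.05% to 6.07% and 5.09% to 7.11% by the authors' TPM.

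Among the remaining collagens 9 of 10 tested fell. Col15a1 and Col18a1, which lie next to basement membranes, were at 3.65 to 6.49 against 54.1 to 68.9 CPM (log2 fold change -4.03, SE 0.26) and 25.7 to 40.8 against 125 to 165 CPM (-2.39, SE 0.22). Col8a1, of a short network-forming collagen, was at 237, 326 and 341 CPM in adult libraries and 49.9, 234 and 241 CPM in perinatal ones, where library 1 was low and libraries 2 and 3 reached the adult values. It was not called (0.51, adjusted p = 0.390 in edgeR's quasi-likelihood test), and the log2 difference was 2.34 against perinatal library 1 alone. Its partner Col8a2 fell, at 4.86, 6.30 and 9.84 CPM against 49.4, 190 and 175 CPM (-4.58, SE 0.57). Col13a1, a transmembrane collagen, was at 0 in all adult libraries and at 1.147, 13.4 and 15.2 CPM in perinatal ones. That puts adults at least 62.6-fold below the perinatal mean, a bound that would be far lower against perinatal library 1 alone. Col23a1, another transmembrane collagen, and Col26a1 fell as well (-3.43, SE 0.45, and -6.42, SE 0.51).

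Perinatal library 1, which held the lowest sums of chondrocyte and osteoblast markers in its group, was also compared by itself. All adult libraries lay below perinatal library 1 for 35 of 40 genes and above it for 4 (Col10a1, Col20a1, Col4a5 and Col8a1), against 47.3% and 45.6% of all genes tested. With that library alone as reference, edgeR called 35 collagen genes lower and 4 higher, against 37.7% and 36.7% of all genes tested. These calls have no replicate of the reference behind them. Col2a1, Col10a1 and Col4a6 were not among the 35.

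**Figure D3:**
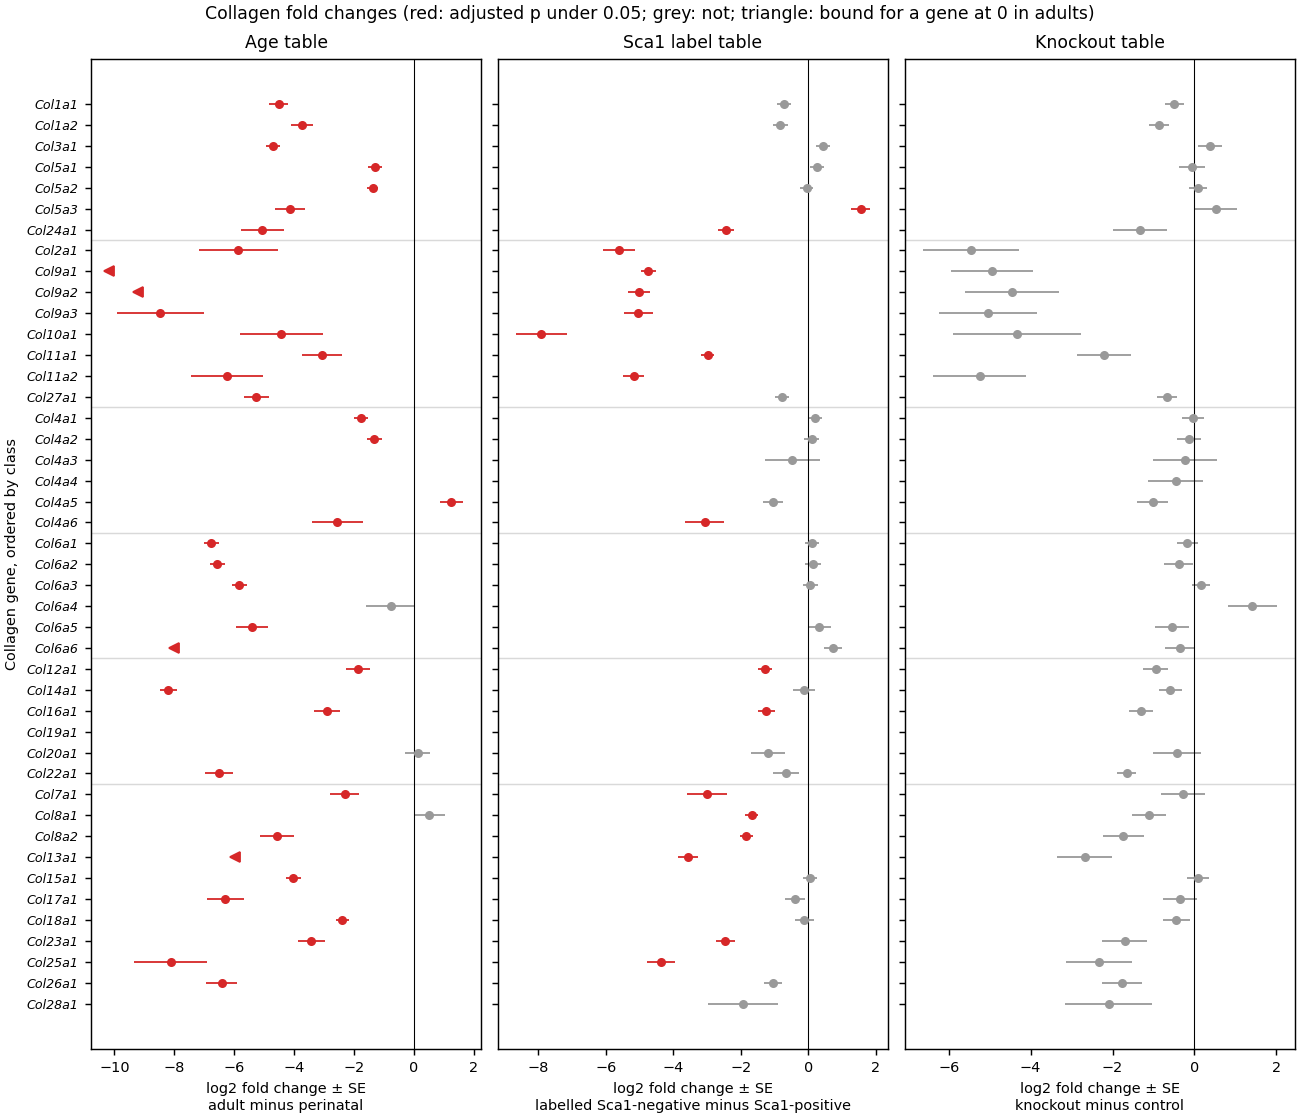
Log2 fold change (horizontal axis) of each collagen gene (rows, by class) in the 3 comparisons, with bars of 1 SE. Red points have an edgeR adjusted p under 0.05 and grey points do not. Triangles are lower bounds, taken from the perinatal mean, for genes at 0 in adult libraries. In the age panel all red points except Col4a5 lie left of 0, in the Sca1 panel 7 of the 18 red points are cartilage genes, and the knockout panel has no red point.

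Ratios between partner chains within a library need no scaling between libraries. Col1a1 counts per Col1a2 count were 0.804, 0.764 and 0.759 in adult libraries and 1.54, 1.27 and 1.29 in perinatal ones, a log2 difference of -0.81. Col4a1 per Col4a2 was 1.10, 1.14 and 1.12 against 1.69, 1.43 and 1.46 (-0.44), for a pair that shares the start region printed above. Col6a1 per Col6a2 was 1.13, 1.35 and 1.17 against 1.39, 1.40 and 1.37 (-0.20). In these 3 pairs no adult library reached a perinatal one by counts (exact two-sided permutation p = 0.10 each, the smallest possible, and 0.133 after Benjamini-Hochberg adjustment over 4 ratios). By the authors' TPM the log2 difference was -1.09 for Col1a1 per Col1a2 and -0.32 for Col4a1 per Col4a2, but Col6a1 per Col6a2 overlapped, at 1.13, 1.37 and 1.18 in adult and 1.20, 1.25 and 1.22 in perinatal libraries. Col5a1 per Col5a2 overlapped between groups, with a log2 difference of 0.04 (exact permutation p = 1) by counts but -1.09 by the authors' TPM. The counts behind 1 TPM, relative to the median of each library, differed between adult and perinatal libraries for some genes. They were 3.97 to 4.03 against 1.63 to 2.11 for Col5a1, 3.62 to 3.75 against 0.74 to 0.89 for Col12a1 and 3.67 to 4.32 against 1.29 to 1.34 for Col6a3, but 2.64 to 2.67 against 2.60 to 2.63 for Col5a2. In the pairs above they were 2.75 to 2.79 against 1.98 to 2.18 for Col1a1 and 2.24 to 2.30 against 2.02 to 2.13 for Col1a2. For Col4a1 they were 3.04 to 3.06 against 2.46 to 2.65, and for Col4a2 3.06 to 3.09 against 2.24 to 2.48. For Col6a1 they were 1.85 to 1.86 against 1.63 to 1.72, and for Col6a2 1.86 to 1.88 against 1.40 to 1.54. Col16a1 was at 1.84 to 1.96 against 0.33 to 0.54. The part of that difference in the adult results was not tested.

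**Figure D4:**
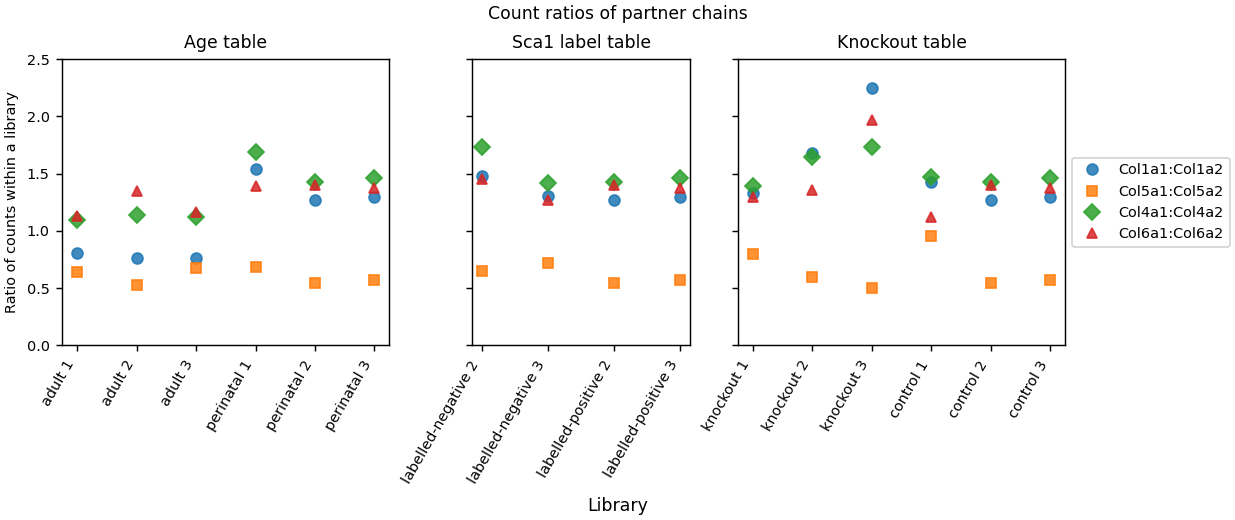
Ratio of the counts of partner chains (vertical axis) in each library (horizontal axis), with 1 panel for each table and a symbol for each pair. Adult libraries lie below 0.81 for Col1a1 per Col1a2 and perinatal libraries above 1.26, and knockout 3 has the highest ratio of the knockout table at 2.25.

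Of the genes that process collagen, most of those for modification and folding, propeptide cleavage and export were lower in adult cells, while crosslinking enzymes and receptors went both ways. The shares of all genes tested that fell and rose were 39.7% and 37.4%. Of 21 genes of modification and folding 16 fell and 1 rose (median log2 fold change -2.12). Their summed level was 5008 to 5443 CPM in adult and 17080 to 26188 CPM in perinatal libraries. Fkbp7 (10.05 ± 2.13 against 194.4 ± 8.22 CPM, SD, n = 3 each) and Ppib (200.3 ± 10.8 against 839 ± 13.2 CPM), which help chains to fold, fell, and Tmem38b, an ion channel of the endoplasmic reticulum, rose (31.3 ± 4.18 against 8.52 ± 1.43 CPM). Of 7 genes of propeptide cleavage 5 fell and 0 rose, among them Pcolce, an enhancer of that cleavage (96.8 ± 13.3 against 2578 ± 722 CPM). Of 6 export genes 4 fell and 1 rose (median log2 fold change -0.48). Of 5 crosslinking genes Loxl2 and Lox rose (log2 fold changes 2.07, SE 0.17, and 2.33, SE 0.23) and Loxl1 fell (-2.86, SE 0.25). Lox, a lysyl oxidase that crosslinks fibrils, averaged 2156 ± 275 CPM in adults and 430 ± 110 CPM in perinatal libraries. Of 9 receptor and uptake genes 4 rose and 4 fell. The rises included Lair1, a collagen receptor of immune cells (88.3 ± 8.53 CPM against 0 in every perinatal library), and Itgb1 (1191 ± 108 against 633 ± 37.9 CPM). Of 6 transcription factors of skeletal lineages 5 fell and 0 rose, for example Sox5 (0.193 ± 0.0822 against 29.4 ± 3.30 CPM) and Sox9 (7.22 ± 3.62 against 281 ± 173 CPM).

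The libraries labelled Sca1-negative were then compared with Sca1-positive libraries 2 and 3 among perinatal wild-type cells, with directions that run against Ly6a. The cartilage collagens were lower in the libraries labelled Sca1-negative while type I, III and VI collagens did not pass the test. Of 41 collagen genes tested, 17 fell and 1 rose, against 2.79% and 1.63% of all genes tested, 4.41% in either direction (edgeR quasi-likelihood test). The median log2 fold change was -1.05, against 0.01 for all genes. Groups did not overlap for 30 of 41, against 50.3% of all genes. The labelled-negative libraries were the lower ones for 25 of these 30 (25.8% of all genes) and the higher ones for 5 (24.4%). Col4a4 and Col6a4 were not tested. Collagen genes took 7.89% and 9.78% of counts in the libraries labelled Sca1-negative and 11.8% and 12.7% in the Sca1-positive ones (exact permutation p = 0.333, the smallest that 2 against 2 libraries allow).

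Of the 8 cartilage collagens 7 fell (median log2 fold change -5.03). Col2a1 was at 48.9 and 117 CPM in the labelled-negative libraries and 3641 and 4647 CPM in the Sca1-positive ones (-5.62, SE 0.48, adjusted p = 0.00377 in edgeR's quasi-likelihood test). Col9a1 was at 10.4 and 9.54 CPM against 258 and 290 CPM (-4.75, SE 0.22), Col9a2 at 2.89 and 5.49 CPM against 127 and 149 CPM, and Col9a3 at 3.48 and 8.67 CPM against 199 and 208 CPM. All 3 type IX chains were low in both labelled-negative libraries, with log2 fold changes of -5.02 (SE 0.33) and -5.05 (SE 0.43) for Col9a2 and Col9a3. Col11a2 was at 4.85 and 8.10 CPM against 211 and 265 CPM (-5.18, SE 0.32). Its partner Col11a1 had a smaller log2 difference, at 81.4 and 79.6 CPM against 659 and 642 CPM (-2.98, SE 0.19).

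Col10a1 was at 0 and 0.29 CPM against 49.3 and 23.2 CPM (log2 fold change -7.92, SE 0.75), a call that was lost without labelled-negative library 2 (edgeR adjusted p = 0.246) or 3 (0.126). Col27a1 was at 30.4 and 42.9 CPM against 65.2 and 63.4 CPM and did not pass (-0.78, adjusted p = 0.102 in edgeR's quasi-likelihood test). It passed with DESeq2 (0.0462) and in edgeR without labelled-negative library 2 (0.0132) or 3 (6.70e-05). The cartilage collagens together took 0.018% and 0.027% of all counts against 0.521% and 0.629%. Chondrocyte markers (8 of 8 fell) summed to 550 and 586 CPM against 2292 and 2223 CPM, and osteoblast markers (6 of 7 fell) to 164 and 107 CPM against 6431 and 5900 CPM. Tendon markers (3 of 4 fell) summed to 2734 and 2011 CPM against 6619 and 6419 CPM. Fibroblast progenitor markers, a list that holds Ly6a itself (5 of 6 rose), summed to 2056 and 2716 CPM against 463 and 574 CPM. The part of these cell types in the collagen differences was not tested.

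Of the 7 fibrillar collagens 1 rose and 1 fell, with a median log2 fold change of -0.05. Col1a1 was at 23909 and 28142 CPM against 43305 and 44762 CPM (-0.73, SE 0.20), and Col1a2 at 16153 and 21612 CPM against 34105 and 34670 CPM (-0.84, SE 0.22). Neither overlapped between groups, yet neither passed the test (adjusted p = 0.116 and 0.101 in edgeR's quasi-likelihood test). Both passed with DESeq2 (adjusted p = 0.0171 and 0.00643). In edgeR both passed without labelled-negative library 2 (0.0181 and 0.0137) or 3 (2.32e-04 and 2.85e-05), where the lone library left is assumed to vary like the others. Col3a1 lay the other way, at 20971 and 24692 CPM against 16041 and 18355 CPM (0.44, SE 0.21, edgeR adjusted p = 0.330, and 0.0424 without labelled-negative library 2). Col5a3 rose, at 482 and 750 CPM against 182 and 248 CPM (1.54, SE 0.28, edgeR adjusted p = 0.0343), but its adjusted p was 0.132 without Sca1-positive library 2. Col24a1 fell, at 4.52 and 5.71 CPM against 26.4 and 30.4 CPM (-2.44, SE 0.23). Col5a1 and Col5a2 overlapped between groups (1347 and 1723 against 1218 and 1419 CPM, and 2079 and 2398 against 2237 and 2499 CPM).

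For Col6a1, Col6a2 and Col6a3 of type VI and for Col4a1 and Col4a2 of type IV the groups were close. Col6a1 was at 5010 and 6018 CPM against 4899 and 5637 CPM, Col6a2 at 3451 and 4741 CPM against 3497 and 4113 CPM, and Col6a3 at 1906 and 2634 CPM against 2082 and 2360 CPM. All 3 overlapped, with log2 differences of 0.10 (SE 0.21), 0.13 (SE 0.23) and 0.06 (SE 0.23). Col4a1 (908 and 985 against 755 and 931 CPM) and Col4a2 (524 and 696 against 529 and 636 CPM) did not pass either. Of 5 tested type IV genes the groups did not overlap for 3, against 50.3% of all genes, and the median log2 fold change was -0.47. Only Col4a6 was called, lower, at under 1 CPM in the libraries labelled Sca1-negative. It was not called without Sca1-positive library 3 (edgeR adjusted p = 0.0664).

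Fibril-associated collagens fell in 2 of 5 cases. Col12a1 was at 678 and 910 CPM against 1938 and 2023 CPM (log2 fold change -1.29, SE 0.21, adjusted p = 0.0263 in edgeR's quasi-likelihood test), and Col16a1 at 225 and 342 CPM against 634 and 739 CPM (-1.25, SE 0.25, adjusted p = 0.0454). Col12a1 lost its call without Sca1-positive library 2 (edgeR adjusted p = 0.0695) or 3 (0.109), and Col16a1 without library 3 (0.178). Col14a1 overlapped between groups, at 662 and 1310 CPM against 979 and 1229 CPM, and passed only without labelled-negative library 3 (-0.67, edgeR adjusted p = 0.00523). Of the 11 remaining genes 6 fell. Col8a1 was at 75.02 and 69.4 CPM against 234 and 241 CPM (-1.68, SE 0.18), and Col8a2 at 43.7 and 56.4 CPM against 190 and 175 CPM (-1.84, SE 0.20). The transmembrane collagen genes Col13a1 (1.31 and 1.01 against 13.4 and 15.2 CPM) and Col23a1 (2.49 and 3.83 against 17.1 and 18.6 CPM) fell too, as did Col7a1, of anchoring fibrils (0.46 and 2.24 against 9.35 and 12.5 CPM). Col15a1 (62.8 and 61.7 against 54.1 and 68.9 CPM) and Col18a1 (97.5 and 169 against 129 and 165 CPM) overlapped, and Col18a1 passed without labelled-negative library 3 (-0.53, edgeR adjusted p = 0.0286).

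Col1a1 per Col1a2 was 1.48 and 1.30 in the libraries labelled Sca1-negative and 1.27 and 1.29 in the Sca1-positive ones (exact permutation p = 0.333, adjusted p = 0.667 over 4 ratios). Col5a1 per Col5a2 was 0.648 and 0.719 against 0.544 and 0.568, which did not overlap (log2 difference 0.30, with the same p-values), but did by the authors' TPM (0.775 and 1.06 against 0.824 and 0.919). Of the processing genes, 1 of 21 of modification and folding was called, P3h2, a prolyl 3-hydroxylase, lower at 21.0 ± 0.0141 against 42.2 ± 1.24 CPM (SD, n = 2 each). Of 7 propeptide genes Adamts3, a protease that trims procollagen, fell (8.34 ± 0.907 against 21.0 ± 0.860 CPM). None of 6 export, 5 crosslinking and 8 receptor genes was called by edgeR. Of the 6 lineage factors 5 fell, with Sp7, of osteoblasts, at 0.840 ± 0.234 against 23.5 ± 0.0380 CPM and Runx2 at 4.24 ± 0.208 against 31.2 ± 4.51 CPM.

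Igf1r knockout libraries were compared with 3 controls, of which control 1 alone had high Ly6a, as the knockouts did. No collagen gene passed the test: 0 of 42 tested rose and 0 fell, against 0% and 0.0368% of all genes tested (edgeR quasi-likelihood test). At an unadjusted p under 0.05 there were 1 higher and 19 lower, against 12.1% and 9.68% of all genes tested. DESeq2 called 16 lower and 0 higher, against 3.68% and 3.29% of all genes with an adjusted p. The authors' deposited table listed 15 of 43 as lower and 0 as higher, against 3.47% and 2.92% of all its genes. The log2 difference was below 0 for 36 of 42 genes, with a median of -0.63 against -0.03 for all genes tested. Groups, after scaling, did not overlap for 15 of 42, against 29% of all genes. Col6a4, a minor type VI chain at 1.98 CPM or less, was the single one of these that was higher in knockouts. Col4a6 was not tested. Collagen genes took 9.31%, 8.80% and 8.72% of counts in knockouts 1, 2 and 3 and 10.9%, 11.8% and 12.7% in the controls (8.94% ± 0.321 against 11.8% ± 0.908, SD, n = 3 each; exact two-sided permutation p = 0.10, the smallest possible).

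The edgeR calls depended on which control was used, and the direction over the family did so less. All knockouts lay below control 1 for 22 of 42 genes and above it for 4, with control 1 inside the knockout range for 16, against 35% and 34.8% of all genes tested that lay below and above it. Against controls 2 and 3 all knockouts were below for 23 genes and above for 4, where 22.4% and 21.8% of all genes did so. Without control 1, which leaves the Ly6a-low controls, edgeR called 14 collagen genes lower and 0 higher, against 1.51% and 0.68% of all genes tested. Without knockout 1 it called 8 lower and 0 higher, against 10.5% and 11% of all genes.

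The cartilage class had the largest differences (median log2 difference -4.70) and a wide spread among controls. Col2a1 was at 131, 3642 and 4650 CPM in controls 1, 2 and 3 and at 102, 25.5 and 56.0 CPM in knockouts 1, 2 and 3. The knockouts were below all controls, but control 1 was near them and far from the other controls. The log2 difference was -5.47 (SE 1.17, adjusted p = 0.176 in edgeR's quasi-likelihood test). Without control 1 it was -6.03 (adjusted p = 0.00916 in the same test). Col9a1 was at 14.5, 258 and 290 CPM against 9.87, 3.58 and 4.25 CPM, and Col11a2 at 9.12, 211 and 265 CPM against 8.07, 1.79 and 2.52 CPM. Col9a2 (5.52, 127 and 149 against 8.70, 1.32 and 2.44 CPM) and Col9a3 (7.99, 199 and 208 against 8.79, 1.16 and 2.27 CPM) had knockout 1 above control 1 before scaling, and in both the other knockouts were below it. Col11a1 was at 72.3, 660 and 642 CPM in controls and 99.5, 100.4 and 83.5 CPM in knockouts, all above control 1. Col10a1 was at 0.25, 49.3 and 23.2 CPM against 0.32, 0.11 and 2.78 CPM, and Col27a1 at 40.7, 65.3 and 63.4 CPM against 41.8, 36.4 and 26.2 CPM. Without control 1 the test was passed by Col9a1, Col9a2, Col9a3, Col11a1 and Col11a2 (edgeR adjusted p = 0.00854, 0.0244, 0.0229, 0.00854 and 0.0112). Without knockout 1 it was passed by Col9a1, Col9a3 and Col11a2 (0.0430, 0.0497 and 0.0498). Chondrocyte markers summed to 704, 2293 and 2224 CPM in controls 1, 2 and 3 and to 608, 443 and 365 CPM in knockouts 1, 2 and 3. Osteoblast markers summed to 97.5, 6434 and 5903 CPM against 292, 130 and 243 CPM, and fibroblast progenitor markers to 2280, 463 and 574 CPM against 2405, 2218 and 1935 CPM. Tendon markers summed to 1926, 6622 and 6423 CPM in controls 1, 2 and 3 and to 3020, 2534 and 2341 CPM in knockouts. No gene of these lists (8, 7, 6 and 4 tested) was called by edgeR. Control 1 was close to the knockouts and far from controls 2 and 3 in these sums, and their part in the cartilage collagens was not tested.

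Among the fibrillar collagens type I was lower in every knockout than in every control, and type III was not. Col1a1 was at 34535, 43320 and 44787 CPM in controls 1, 2 and 3 and at 26047, 28836 and 29616 CPM in knockouts 1, 2 and 3 (log2 difference -0.50, SE 0.23, adjusted p = 0.249 in edgeR's quasi-likelihood test). Col1a2 was at 24194, 34117 and 34689 CPM against 19610, 17183 and 13159 CPM (-0.87, SE 0.25, adjusted p = 0.177 in the same test, 0.0157 with DESeq2 and 0.0450 without knockout 1). Col3a1 was at 24453, 16047 and 18365 CPM against 23181, 23435 and 28742 CPM, an overlap (0.38, SE 0.29). Knockout 3 was the lowest library for Col1a2 and the highest for Col3a1. Col1a1 per Col1a2 was 1.33, 1.68 and 2.25 in knockouts 1, 2 and 3 and 1.43, 1.27 and 1.29 in controls (log2 difference 0.37, exact two-sided permutation p = 0.20, adjusted p = 0.70 over 4 ratios). Col5a1 (2172, 1218 and 1419 against 1932, 1471 and 1209 CPM) and Col5a2 (2285, 2238 and 2500 against 2425, 2461 and 2421 CPM) overlapped.

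Col22a1, Col16a1 and Col26a1, outside the fixed set, were singled out after their values were seen. In each, every knockout was below control 1 as well as below controls 2 and 3. Col22a1 (chromosome 15, 71795795 to 72034227, minus strand) was at 50.2, 48.1 and 62.4 CPM in controls 1, 2 and 3 and at 18.3, 18.8 and 13.3 CPM in knockouts. The controls were close to each other here, control 1 included, unlike in the cartilage class. The log2 difference was -1.65 (SE 0.23, adjusted p = 0.0874 in edgeR's quasi-likelihood test), the smallest adjusted p of the family. It passed with DESeq2 (adjusted p = 3.88e-07), without knockout 1 (edgeR adjusted p = 0.0228) and without control 1 (0.0285). Against control 1 alone the log2 difference was -1.65, which rests on that single control and is no further pass of the test. Col16a1 was at 465, 634 and 740 CPM against 343, 216 and 174 CPM (-1.31, SE 0.29, edgeR adjusted p = 0.176). Col26a1 was at 20.7, 31.5 and 40.3 CPM against 17.1, 4.53 and 5.34 CPM (-1.77, SE 0.50, edgeR adjusted p = 0.177). Both passed with DESeq2 (adjusted p = 0.00258 and 0.0144) and without knockout 1 (edgeR adjusted p = 0.0228 each).

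**Figure D5:**
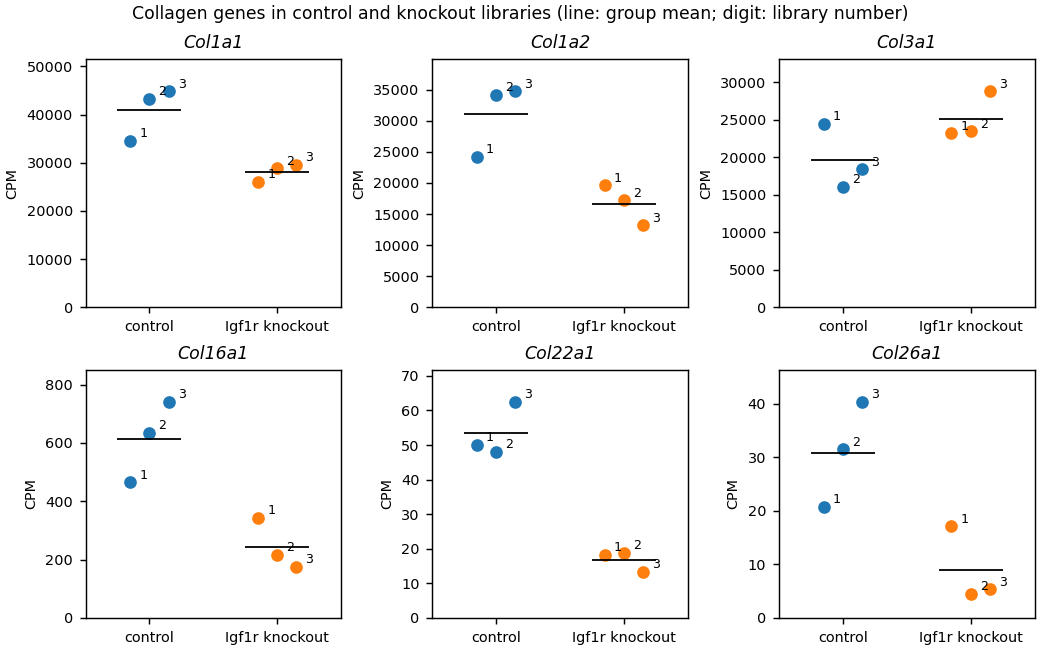
CPM (vertical axes, from 0) of 6 collagen genes in the control and Igf1r knockout libraries, with points for libraries 1, 2 and 3 and a line at the group mean. The groups do not overlap for Col1a1, Col1a2, Col16a1, Col22a1 and Col26a1, none of which passed the edgeR test, and they overlap for Col3a1.

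The other collagens differed by less or with wider spread. Col12a1 was at 1019, 1938 and 2024 CPM in controls and 1050, 857 and 630 CPM in knockouts (log2 difference -0.94, SE 0.31), and its groups overlapped before scaling, since knockout 1 was above control 1. Col14a1 was at 1384, 979 and 1230 CPM against 1035, 765 and 581 CPM (-0.59, SE 0.28). Col6a1 (6656, 4900 and 5640 against 6359, 4567 and 4212 CPM), Col6a2 (5932, 3498 and 4116 against 4900, 3376 and 2144 CPM) and Col6a3 (2371, 2083 and 2361 against 2740, 2535 and 2224 CPM) overlapped, as did Col4a1 (1048, 756 and 932 against 1116, 822 and 716 CPM) and Col4a2 (712, 530 and 637 against 803, 499.7 and 414 CPM). Col15a1 (60.7, 54.1 and 69.0 against 52.8, 58.1 and 78.6 CPM) and Col18a1 (200.03, 129 and 165 against 177, 103 and 84.3 CPM) overlapped too. Col8a1 was at 71.9, 234 and 241 CPM against 98.7, 69.4 and 75.4 CPM, so control 1 lay inside the knockout range, and it passed without control 1 (-1.48, edgeR adjusted p = 0.0328).

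No gene of the processing and lineage lists was called by edgeR in knockouts, out of 21 of modification and folding, 7 of propeptide cleavage, 6 of export, 5 of crosslinking, 8 of receptors and 6 lineage factors. The summed level of modification and folding genes was 18316, 14943 and 12008 CPM in knockouts 1, 2 and 3 and 21165, 24666 and 26210 CPM in controls 1, 2 and 3, with no overlap. The median log2 difference of these 21 genes was -0.24, against -0.03 for all genes tested. A sum is weighted to its most abundant genes and need not follow most members. The sum of propeptide cleavage genes was 3360, 2130 and 1363 CPM against 4310, 3160 and 3626 CPM and overlapped between groups. Knockout 3 was the lowest library in both sums.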

How the data were processed

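PolyA RNA of 11 sorted mouse samples was analysed from 3 deposited tables. Per the submitters' processing notes, reads were trimmed with Trimmomatic 0.32, the build was mm10 and DESeq2 was used. For the aligner, counter, annotation and strand, nothing is given in the sources used here. The authors deposited raw counts per gene, which entered every test. TPM values of the age and Sca1 tables, made by the authors, served only as an alternative for shares and chain ratios. The deposited knockout columns headed TPM held values on a log2 scale and were not used. The authors' deposited log2 fold changes and adjusted p-values come from their DESeq2 comparison, per the file headers.

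The members, classes and gene lists were chosen with earlier results of these data known. Each table was fitted by itself with edgeR 4.0.16 in R 4.3.3 (filterByExpr, TMM, glmQLFit with robust estimation, glmQLFTest). The group was the only term, and p-values were Benjamini-Hochberg adjusted over all 13757, 13529 and 13590 genes tested. The call threshold was an adjusted p under 0.05. Tests were run first on simulated counts with known changes. Library totals ran from 13412316 to 23782217 counts, so a count of 3, taken as the floor, equals 0.126 to 0.224 CPM. The floor covers counting error only. Shares and chain ratios were compared with exact permutation tests over libraries.

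Members given by library were 23 fixed genes, the same in each comparison, and other called members with at least 10 CPM in a group. Other members are given by counts and ranges, except a few named after their values were seen to account for a count (Col4a6, Col6a4, Col6a5 and Col20a1, and 3 genes in the knockout comparison). Positions and exon lengths are from GENCODE M21, which matched 16506 of 16507, 14267 of 14267 and 14910 of 14910 identifiers. Alternatives were DESeq2 1.42.0, upper-quartile factors, collagen rows left out of the scaling, no filter on low counts, the replicate number as a block, each library left out, and reference library 1 alone.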

Additional observations from a re-analysis of the deposited data

How the results depend on the processing

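In the age comparison all 37 called collagen genes kept their call with DESeq2, upper-quartile factors, collagen rows left out of the scaling or no filter on low counts. DESeq2 and upper-quartile factors moved the median log2 fold change of all genes from -0.06 to -0.20 and -0.19. The number called higher was 0 to 1 over single libraries left out, with 0 without adult library 3 or perinatal library 2, and 4 with perinatal library 1 alone as reference, where Col10a1 was at 3.93 and Col4a6 at 0.34. The log2 ratio of Col5a1 to Col5a2 was -1.09 by the authors' TPM and ran from -0.037 to 0.15 over libraries left out.

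In the Sca1 comparison all 18 called genes kept their call under the same 4 alternatives. With single libraries left out, which leaves a lone sample assumed to vary like the others, 14 to 24 collagen genes were called lower and 0 to 3 higher, beside 2.28% to 18.4% and 1.03% to 16.3% of all genes tested. The log2 ratio of Col4a1 to Col4a2 ran from -0.030 to 0.26 and that of Col6a1 to Col6a2 from -0.13 to 0.067. Log2 differences that crossed 0 ran from -0.091 to 0.26 for Col4a2, -0.67 to 0.25 for Col14a1, -0.15 to 0.050 for Col5a2, -0.14 to 0.25 for Col15a1, -0.53 to 0.21 for Col18a1, -0.026 to 0.22 for Col6a1, -0.077 to 0.32 for Col6a2 and -0.16 to 0.25 for Col6a3.

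In the knockout comparison DESeq2 called 16 genes lower, and 0 to 14 were called over libraries left out, with 14 without control 1 and 8 without knockout 1. The log2 ratio of Col5a1 to Col5a2 ran from -0.28 to 0.16. Log2 differences that crossed 0 ran from -0.18 to 0.13 for Col4a1, -0.39 to 0.031 for Col4a2, -0.25 to 0.29 for Col5a1, -0.16 to 0.24 for Col15a1 and -0.32 to 0.0051 for Col6a1. With control 1 alone as reference they were 2.10 for Col10a1, 0.32 for Col11a1, -0.018 for Col3a1 and 0.10 for Col8a1. The cause of these changes was not tested.

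Replicate numbers are not stated to pair libraries. Deviations of same-numbered libraries correlated at -0.02, -0.02 and 0.19 (age), 0.30 (Sca1) and 0.19, 0.12 and 0.05 (knockout). In the age and knockout comparisons not every library correlated best with its own number. With 2 libraries per group the Sca1 value is a single one, the same for both pairs and of opposite sign for unlike numbers. With the replicate block edgeR called 1 higher and 35 lower (age), 2 higher and 23 lower (Sca1) and 0 (knockout). The shares of all genes called with the block are not given here, so these counts show no change particular to collagens. Col10a1 (age) was then not called (adjusted p = 0.0719), and Col1a1, Col1a2 and Col27a1 (Sca1) were (0.0467, 0.0258 and 0.0230). Depth limits genes near the floor of 3 counts, such as Col19a1 and Col4a4.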
